A study of Mus musculus with 10 samples.

Results

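The blood-brain barrier genes described here are 10 transcripts of brain endothelium, fixed by name: the junction genes Cldn5, Ocln, Tjp1, Cdh5 and Pecam1, the transporter genes Slc2a1, Abcb1a and Mfsd2a, and the VEGF receptor genes Flt1 and Kdr. They are 10 of the 28871 genes in the deposited table, and all 10 passed the filter on low counts that left 19093 genes to test. The samples are whole hippocampi of wild-type male C57BL/6J mice, 2 months old. In 5 samples, called Visudyne 3, 6, 9, 12 and 15 after their titles, the mice had received Visudyne, a formulation of the photosensitizer verteporfin, into the cisterna magna. Red light of 689 nm through the intact skull then activated the drug to ablate meningeal lymphatic vessels. The mice of the other 5 samples, vehicle 1, 4, 7, 10 and 13, had received vehicle and the same light. All had the procedure again after 2 weeks and were sampled 2 weeks after the last one. The labels do not say that each sample is a separate animal, so that the p-values measure the spread between these samples.

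Endothelial cells of brain capillaries are joined by tight junctions that close the path between cells, and they carry few vesicles across. Nutrients therefore enter through dedicated carriers, and efflux pumps return many drugs to the blood. Signals from neighbouring cells, among them Wnt ligands, maintain this state. In a dissected hippocampus endothelial cells are a small part of the tissue, and Tjp1 and Slc2a1 are also expressed by other brain cells such as astrocytes.

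No difference between Visudyne and vehicle samples was detected in any of the 10 members. None passed the test (edgeR's quasi-likelihood test, adjusted p = 0.9999 for each), and none had an unadjusted p under 0.05. DESeq2 and limma voom called 0 of the 10 as well. Over all genes, 0.0210% were called by edgeR and 1.70% had an unadjusted p under 0.05. The groups overlapped in every member, where 0.435% of all genes had groups that did not overlap. What did vary was the level from sample to sample: Cldn5, Flt1, Abcb1a and Cdh5 were high or low together in the same samples, and Mfsd2a was low where they were high.

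The libraries held between 51165271 and 68895223 estimated counts each, with no difference between the groups past the threshold (exact permutation p = 0.516). The lowest member count in any sample was 273, for Cdh5 in vehicle 13, and the highest was 6646, for Tjp1. Levels are CPM, the usual depth-scaled counts, with library totals scaled by TMM. Differences are log2 fold changes, Visudyne minus vehicle, and their 95% intervals come from the fit over all genes and are not adjusted for the number of genes. Gene positions are those of the GENCODE annotation of mm10. In bulk tissue, fewer endothelial cells and less RNA per endothelial cell cannot be told apart.

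Upstream sequences were available from RefSeq (GRCm38.p6, the mm10 assembly) for 8 of the 10 members. Shown are the 250 bases upstream of the annotated start of Cldn5 and Flt1, which varied together across samples, of the other VEGF receptor gene Kdr, and of Mfsd2a, which varied in the opposite direction to Cldn5 and Flt1. Kdr had r = 0.61 with both Cldn5 and Flt1 over the 10 samples, and neither passed the threshold (permutation test, adjusted p = 0.12 for each). Capitals mark matches to 5 motifs searched on both strands: the ETS cores AGGAAG and CGGAAG, the TCF/LEF core CTTTGA, the GC box GGGCGG and the TATA box TATAAA. The windows lie at chr16:18776597-18776846 for Cldn5 (plus strand) and, all on the minus strand, at chr5:147726012-147726261 for Flt1, chr5:75978456-75978705 for Kdr and chr4:122961189-122961438 for Mfsd2a.
Cldn5: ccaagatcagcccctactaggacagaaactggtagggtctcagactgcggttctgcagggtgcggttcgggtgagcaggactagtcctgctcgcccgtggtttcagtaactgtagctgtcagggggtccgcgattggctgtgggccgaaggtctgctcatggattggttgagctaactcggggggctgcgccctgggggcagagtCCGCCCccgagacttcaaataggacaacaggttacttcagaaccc
Flt1: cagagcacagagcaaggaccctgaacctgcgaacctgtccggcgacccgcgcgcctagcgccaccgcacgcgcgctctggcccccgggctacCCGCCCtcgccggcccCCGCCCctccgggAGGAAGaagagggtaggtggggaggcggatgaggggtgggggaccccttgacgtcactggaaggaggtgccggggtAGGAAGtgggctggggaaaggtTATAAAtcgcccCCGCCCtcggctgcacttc
Kdr: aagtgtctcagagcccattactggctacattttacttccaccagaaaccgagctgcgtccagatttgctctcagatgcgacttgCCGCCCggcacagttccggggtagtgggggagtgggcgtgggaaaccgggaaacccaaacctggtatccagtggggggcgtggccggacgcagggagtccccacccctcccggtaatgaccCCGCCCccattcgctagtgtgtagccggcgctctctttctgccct
Mfsd2a: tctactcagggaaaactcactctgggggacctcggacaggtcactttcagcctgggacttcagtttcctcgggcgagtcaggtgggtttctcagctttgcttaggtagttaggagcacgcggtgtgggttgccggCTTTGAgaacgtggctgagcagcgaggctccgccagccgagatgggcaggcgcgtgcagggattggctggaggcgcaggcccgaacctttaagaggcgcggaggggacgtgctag
The Flt1 window held 2 AGGAAG, 3 GC box matches and 1 TATA box. Kdr held 2 GC box matches and Cldn5 held 1, while Mfsd2a held 1 CTTTGA and no GC box. Of 32851 windows of the same length, 29.5% held AGGAAG, 13.6% CGGAAG, 13.8% CTTTGA, 32.7% the GC box and 12.4% the TATA box. The windows were 59.6% (Cldn5), 70.4% (Flt1), 61.6% (Kdr) and 61.6% (Mfsd2a) G or C, against a median of 52.4% over all windows. Of these motifs the GC box alone was common to Cldn5, Flt1 and Kdr, and the windows of Slc2a1, Tjp1 and Ocln held it too. The window of Abcb1a, which varied together with Cldn5 and Flt1, held no GC box but 2 CTTTGA and 2 AGGAAG matches. Whether any motif goes with the direction of variation was not tested. A match describes these letters only.

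Cldn5 encodes claudin-5, the main sealing protein of tight junctions in brain endothelium (ENSMUSG00000041378, chromosome 16, 18776847 to 18778262, plus strand). It measured 17.3, 13.2, 11.6, 8.10 and 9.15 CPM in vehicle 1, 4, 7, 10 and 13. In Visudyne 3, 6, 9, 12 and 15 it measured 13.5, 16.7, 13.7, 8.78 and 8.70 CPM. Vehicle 1 and Visudyne 6 were high, vehicle 10 and 13 and Visudyne 12 and 15 were low, and the groups covered nearly the same range. The means were 11.9 ± 3.63 in vehicle and 12.3 ± 3.48 CPM in Visudyne samples (SD, n = 5 each), a log2 fold change of 0.05 with a 95% interval of -0.43 to 0.54. The highest sample exceeded the lowest 2.13-fold, the widest range of the 10 members.

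Cdh5 encodes VE-cadherin, the adhesion protein of endothelial adherens junctions (ENSMUSG00000031871, chromosome 8, 104101625 to 104144511, plus strand). Vehicle 1, 4, 7, 10 and 13 measured 8.91, 8.13, 6.65, 5.40 and 4.94 CPM. The Visudyne samples, in the same order as for Cldn5, measured 9.95, 8.56, 7.36, 6.47 and 6.99 CPM. Visudyne 3 lay above all vehicle samples, and the other Visudyne samples lay within the vehicle range. The log2 fold change was 0.21 with an interval of -0.16 to 0.58, the largest estimate among the members, and it did not pass the test.

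Pecam1, the adhesion molecule CD31 of endothelium, platelets and leukocytes (ENSMUSG00000020717, chromosome 11, 106654217 to 106750628, minus strand), varied less. It measured 19.9, 21.3, 18.8, 18.3 and 18.0 CPM in vehicle 1, 4, 7, 10 and 13. Values in Visudyne 3, 6, 9, 12 and 15 were 20.4, 20.5, 20.2, 15.9 and 20.1 CPM. Visudyne 12 lay below every other sample, and the remaining 9 samples were between 18.0 and 21.3 CPM. The log2 fold change was 0.01 with an interval of -0.15 to 0.18.

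Tjp1 encodes the scaffold protein ZO-1, which links junction proteins to actin (ENSMUSG00000030516, chromosome 7, 65296165 to 65527781, minus strand). It measured 90.4, 93.7, 92.4, 93.1 and 93.7 CPM in vehicle 1, 4, 7, 10 and 13. In Visudyne 3, 6, 9, 12 and 15 it measured 98.7, 92.7, 98.4, 93.7 and 96.5 CPM. It was the least variable member, with a highest sample only 1.09-fold above the lowest. In 4 of 5 Visudyne samples it lay above the highest vehicle sample, by little, and the difference of 0.05 (interval -0.03 to 0.13) did not pass the test. This interval corresponds to -1.95% to 9.52%, the narrowest of the 10.

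Ocln encodes occludin, a membrane protein of tight junctions (ENSMUSG00000021638, chromosome 13, 100496507 to 100552718, minus strand). Vehicle 1, 4, 7, 10 and 13 measured 14.3, 12.8, 12.3, 13.2 and 12.7 CPM. With treatment, samples 3, 6, 9, 12 and 15 measured 12.3, 11.5, 13.1, 14.5 and 12.6 CPM. Visudyne 12 was the highest and Visudyne 6 the lowest sample, the reverse of their order in Cldn5. The log2 fold change was -0.03 (interval -0.18 to 0.12).

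**Figure D1:**
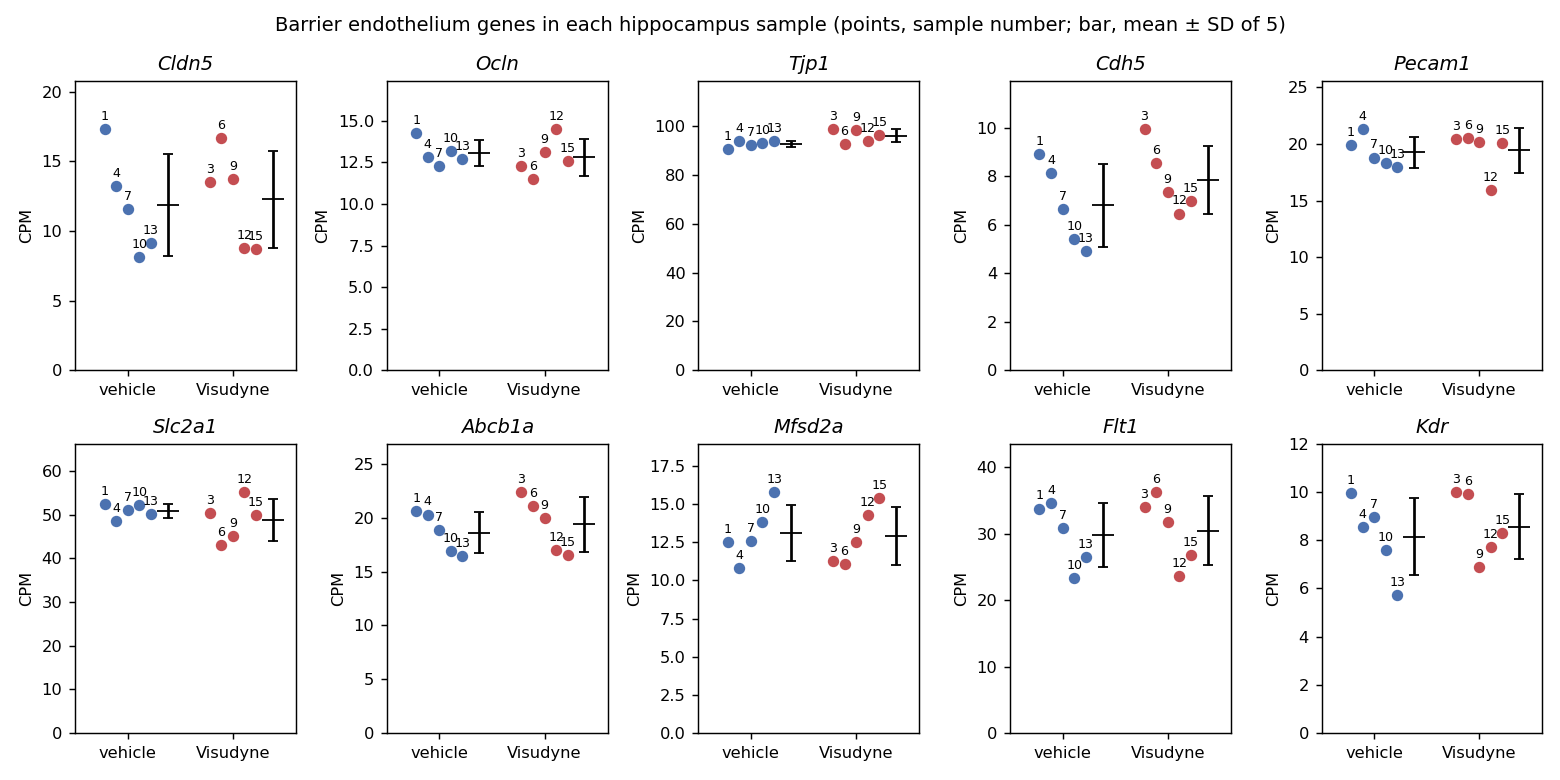
CPM (y axes, from 0) of each of the 10 genes in the 5 vehicle and 5 Visudyne samples; points are samples with the number of their title, bars the mean and SD. The groups overlap in every gene, and Cldn5 spans 8.10 to 17.3 CPM while Tjp1 spans 90.4 to 98.7 CPM.

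Among the transporters, Slc2a1 encodes GLUT1, the glucose carrier of the barrier (ENSMUSG00000028645, chromosome 4, 119108711 to 119137983, plus strand). Vehicle 1, 4, 7, 10 and 13 measured 52.5, 48.6, 51, 52.3 and 50.2 CPM. It measured, in Visudyne 3, 6, 9, 12 and 15, 50.4, 43.1, 45.1, 55.2 and 49.9 CPM. Visudyne 6 and 9 lay below all vehicle samples and Visudyne 12 above them, so that the spread was wider with Visudyne (48.7 ± 4.74 CPM) than with vehicle (50.9 ± 1.61 CPM; SD, n = 5 each); the difference in spread was not tested. The log2 fold change was -0.06 (interval -0.20 to 0.07).

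Abcb1a encodes the efflux pump P-glycoprotein (ENSMUSG00000040584, chromosome 5, 8660077 to 8748575, plus strand). It measured 20.6, 20.3, 18.9, 16.9 and 16.4 CPM in vehicle 1, 4, 7, 10 and 13. Visudyne 3, 6, 9, 12 and 15 measured 22.4, 21.1, 20, 17.0 and 16.5 CPM. The same 4 samples as in Cldn5 were lowest, vehicle 10 and 13 and Visudyne 12 and 15. The log2 fold change was 0.06 (interval -0.15 to 0.27). The similar gene Abcb1b, with which some reads can be shared, measured 3.51 ± 0.496 and 3.33 ± 0.378 CPM in vehicle and Visudyne samples (SD, n = 5 each).

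Mfsd2a encodes the carrier of lysophospholipids with omega-3 fatty acids, which also keeps vesicle transport across brain endothelium low (ENSMUSG00000028655, chromosome 4, 122946850 to 122961188, minus strand). Vehicle 1, 4, 7, 10 and 13 measured 12.5, 10.8, 12.6, 13.8 and 15.8 CPM. Visudyne 3, 6, 9, 12 and 15 measured 11.3, 11.1, 12.5, 14.3 and 15.4 CPM. Here the 4 samples that were lowest in Cldn5 and Abcb1a were the highest. The groups again covered the same range, with a log2 fold change of -0.02 (interval -0.27 to 0.23).

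Kdr encodes VEGF receptor 2, the main signalling receptor for VEGF-A in endothelium (ENSMUSG00000062960, chromosome 5, 75932827 to 75978458, minus strand). It measured 9.94, 8.54, 8.96, 7.57 and 5.73 CPM in vehicle 1, 4, 7, 10 and 13. Visudyne 3, 6, 9, 12 and 15 measured 10, 9.90, 6.89, 7.72 and 8.31 CPM. Vehicle 13 was the lowest sample, and the log2 fold change was 0.07 (interval -0.24 to 0.39).

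Flt1 encodes VEGF receptor 1, which binds VEGF tightly and signals weakly (ENSMUSG00000029648, chromosome 5, 147561604 to 147726011, minus strand). Vehicle 1, 4, 7, 10 and 13 measured 33.8, 34.7, 30.8, 23.4 and 26.5 CPM. Visudyne 3, 6, 9, 12 and 15 measured 34.0, 36.3, 31.7, 23.6 and 26.8 CPM. Each group again held 2 low samples, the same as in Cldn5 and Abcb1a, and the log2 fold change was 0.03 (interval -0.25 to 0.32).

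Together, 7 members had positive and 3 negative log2 fold changes, with a median of 0.04. Over all genes tested 51.1% were positive and the median was 0.0022. The widest interval, that of Cldn5, corresponds to -25.9% to 45.1%. Without vehicle 10 the Cldn5 estimate was -0.05, without vehicle 13 -0.02 and without Visudyne 6 -0.09, with edgeR adjusted p from 0.9976 to 1.0.

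**Figure D2:**
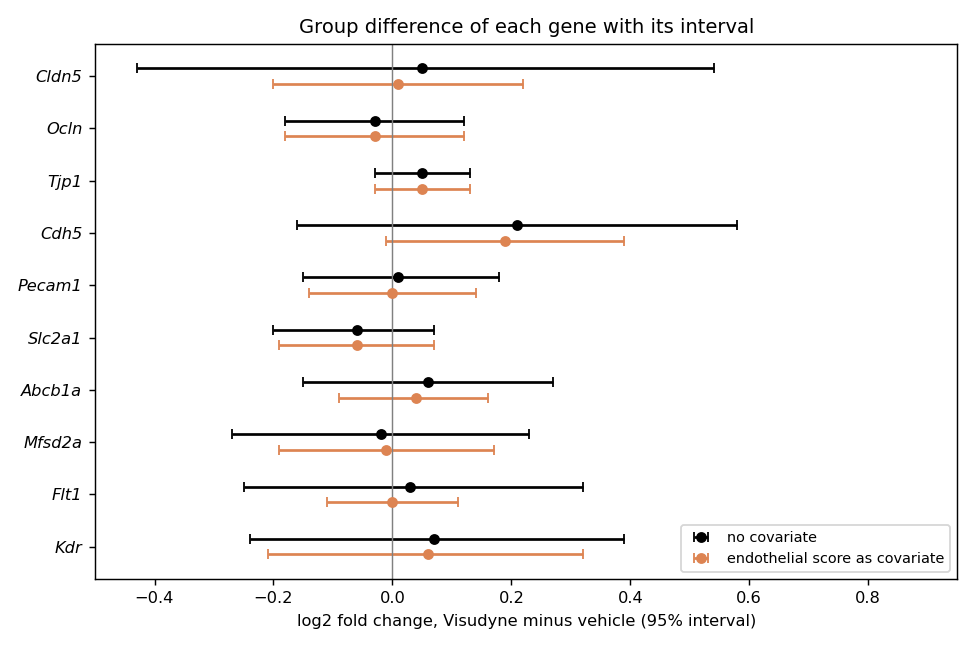
Log2 fold change of each gene (x axis, Visudyne minus vehicle) with its 95% interval, in black without covariate and in orange with the mean level of 30 other endothelial genes as covariate. All black intervals include 0, from the narrow one of Tjp1 (-0.03 to 0.13) to the wide one of Cldn5 (-0.43 to 0.54).

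Levels can be compared between genes only per transcript length, here as CPM per kilobase of all exons of a gene (mean ± SD over the 10 samples). Slc2a1 was highest at 14.2 ± 1.01, followed by Tjp1 at 12.1 ± 0.345 and Cldn5 at 8.53 ± 2.37 CPM per kilobase. Mfsd2a (5.78 ± 0.791) came next, and Abcb1a (3.47 ± 0.395), Pecam1 (3.10 ± 0.256) and Ocln (3.07 ± 0.218) were close to each other. Flt1 (2.23 ± 0.352), Cdh5 (1.75 ± 0.374) and Kdr (0.925 ± 0.157) were the lowest. The sample ranges of neighbours in this order overlapped except between Mfsd2a and Abcb1a, between Ocln and Flt1, and between Cdh5 and Kdr. All exons of a gene were counted in its length, so that genes with long alternative exons are placed too low.

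The members differed in how much they varied between samples. The coefficient of variation over the 10 samples was 27.9% for Cldn5, 21.5% for Cdh5, 17.0% for Kdr and 15.8% for Flt1. It was 13.7% for Mfsd2a and 11.4% for Abcb1a, and 8.24% for Pecam1, 7.10% for Ocln, 7.09% for Slc2a1 and 2.86% for Tjp1. Counting error alone would give 3.75% for Cldn5 and 1.35% for Tjp1. In the fit over all genes the biological coefficient of variation of Cldn5 (24.6%) exceeded that of 76.6% of genes, and that of Tjp1 (5.10%) exceeded that of 0.178%.

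These differences between samples were shared. Of the 45 pairs of members, 12 were correlated over the 10 samples past the threshold (permutation test of Pearson's r on log2 CPM, adjusted over 45 pairs), 8 positively and 4 negatively. All 8 positive pairs lay among Cldn5, Cdh5, Pecam1, Abcb1a, Flt1 and Kdr, and all 4 negative pairs joined Mfsd2a to Cldn5, Cdh5, Abcb1a or Flt1. The closest pair was Cldn5 and Flt1 (r = 0.93, permutation p = 0.00039, adjusted 0.0079; Spearman's rho 0.82, permutation p = 0.0061, adjusted 0.029). Abcb1a had r = 0.90 with both Cldn5 and Flt1, with adjusted permutation p of 0.013 and 0.011. Cdh5 and Abcb1a had r = 0.89 (permutation p = 0.00053, adjusted 0.0079; rho 0.92, permutation p = 0.00044, adjusted 0.020). Over the 15 pairs among these 6 members, grouped after their values were seen, r ran from 0.46 to 0.93, and from 0.46 to 0.93 after each gene was centred on its group means. Centring could change these values little, because the log2 fold changes of the 6 members were only 0.01 to 0.21. The centred r pools both groups and is not an r within either group alone.

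Mfsd2a went the other way. Its r was -0.91 with Abcb1a (permutation p = 0.00040, adjusted 0.0079; rho -0.88, permutation p = 0.0015, adjusted 0.022) and -0.83 with Flt1 (permutation p = 0.0040, adjusted 0.022; rho -0.87, permutation p = 0.0022, adjusted 0.022). With Cldn5 it was -0.79 (permutation p = 0.0091, adjusted 0.036; rho -0.68, permutation p = 0.034, adjusted 0.090). Tjp1 was not correlated with any member past the threshold, with r from -0.27 to 0.23. Ocln and Slc2a1 had r = 0.71 with each other (permutation p = 0.023, adjusted 0.075; rho 0.59, permutation p = 0.080, adjusted 0.18) and did not pass.

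Leaving out the 2 samples farthest from the median of the first gene of a pair gave r = 0.91 for Cldn5 and Flt1, 0.82 for Cdh5 and Abcb1a and -0.85 for Abcb1a and Mfsd2a. With 8 samples, 4 of the 45 pairs still passed: Cldn5 with Flt1, and Flt1 with Abcb1a (0.94), Cdh5 (0.88) and Mfsd2a (-0.91). The 10 samples were spread unevenly in Cldn5, with a widest gap of 0.338 between log2 levels of 3.20 and 3.54 in a range of 1.09. Over the 6 samples above that gap alone, r was 0.66 for Cldn5 and Flt1 (exact permutation p = 0.16, adjusted 0.27 over 5 relations) and -0.08 for Cldn5 and Mfsd2a (exact permutation p = 0.84, adjusted 0.84). These 6 samples were chosen by the level of Cldn5 itself, after the values were seen, which narrows its range, so that a lower r there says little of the relation. Without the 2 samples farthest from the median of Cldn5, its r with Mfsd2a was -0.75 (permutation test, adjusted p = 0.15).

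**Figure D3:**
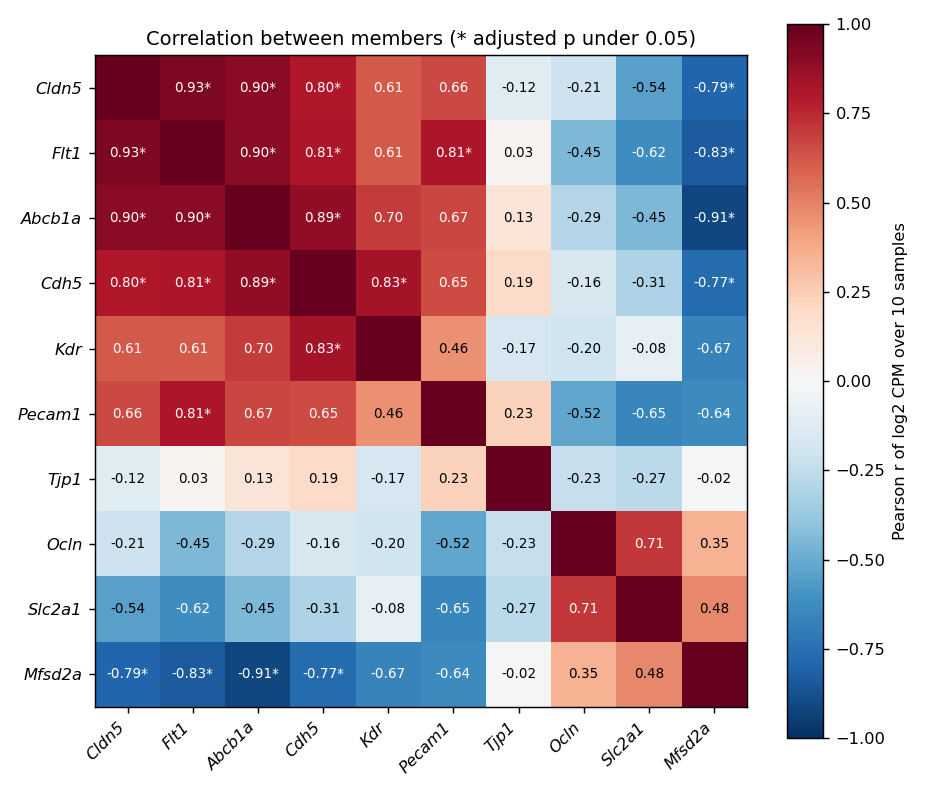
Pearson's r of log2 CPM between each pair of the 10 genes over 10 samples (colour and number; an asterisk marks an adjusted p under 0.05). Cldn5, Flt1, Abcb1a, Cdh5, Kdr and Pecam1 form a block of positive values from 0.46 to 0.93, and Mfsd2a is negative against all of them.

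The shared pattern extended to endothelial genes outside the members. The 30 endothelial identity genes listed, among them the transcription factors Erg and Fli1 and the receptors Tek and Tie1, had a median r of 0.74 with Cldn5, and 29 of 30 were positive. The lowest was Ramp2 (-0.07), a receptor-modifying protein, and the highest was Podxl (0.93), a sialomucin of the vessel lumen. With Mfsd2a the median was -0.65 and 29 of 30 were negative. The mean log2 CPM of the 30 genes ran from 2.21 in vehicle 10 to 2.83 in vehicle 1 and from 2.38 in Visudyne 12 to 2.77 in Visudyne 6.

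Against this mean, Flt1 had r = 0.97 (permutation p = 5e-05, adjusted 0.0033 over 66 relations of 3 members; rho 0.92, permutation p = 0.00049, adjusted 0.025). Cldn5 had r = 0.93 (permutation p = 0.00016, adjusted 0.0053; rho 0.88, permutation p = 0.0017, adjusted 0.029). Mfsd2a had r = -0.78 (permutation p = 0.0099, adjusted 0.044; rho -0.77, permutation p = 0.013, adjusted 0.065). Centred on group means the values were 0.97, 0.93 and -0.78, and without the 2 samples farthest from the median, vehicle 10 and Visudyne 12, they were 0.96, 0.92 and -0.90. Over the 6 samples above the gap in Cldn5 they were 0.83, 0.69 and -0.52, none past the threshold (exact permutation p = 0.054, 0.14 and 0.34).

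**Figure D4:**
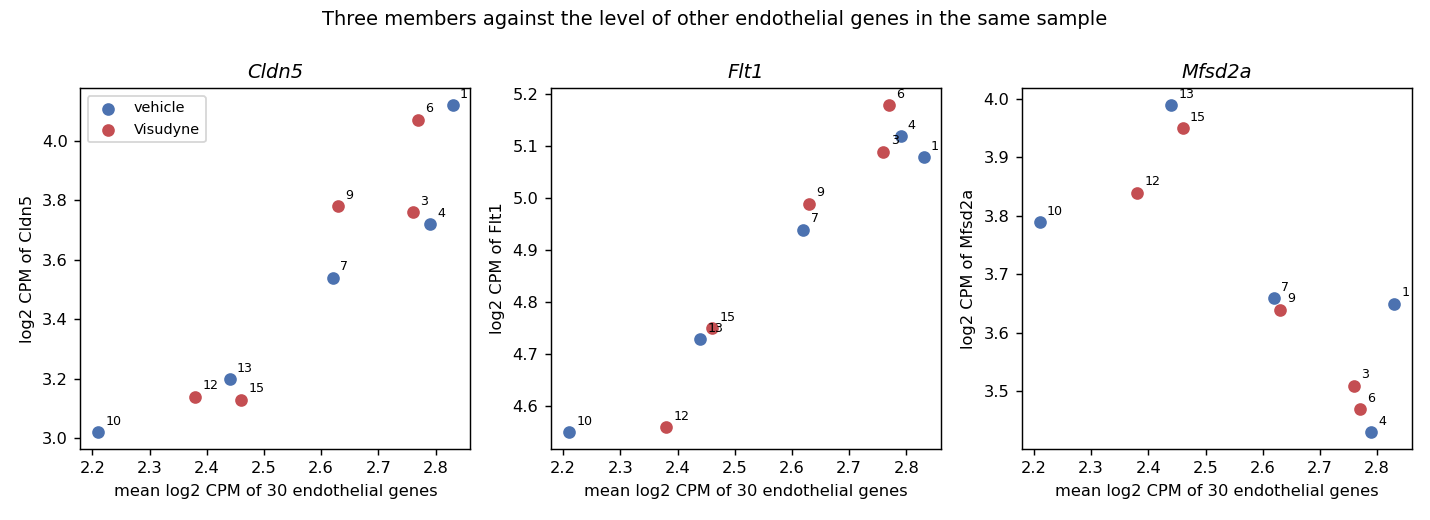
Log2 CPM of Cldn5, Flt1 and Mfsd2a (y axes) against the mean log2 CPM of 30 other endothelial genes in the same sample (x axes); points are samples with the number of their title. Cldn5 and Flt1 lie higher where the mean is higher (r = 0.93 and 0.97) and Mfsd2a lies lower (r = -0.78), with both groups along the same course.

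Other measures of the samples moved with the members as well. The number in the sample titles, whose meaning the labels do not give, had r = -0.83 with Cldn5 (permutation p = 0.0043, adjusted 0.024; rho -0.78, permutation p = 0.011, adjusted 0.058) and 0.84 with Mfsd2a (permutation p = 0.0035, adjusted 0.021; rho 0.81, permutation p = 0.0075, adjusted 0.049). With Flt1 it had r = -0.78 (permutation p = 0.010, adjusted 0.044; rho -0.75, permutation p = 0.017, adjusted 0.068). Without vehicle 1 and Visudyne 15 these were -0.74, 0.94 and -0.83, and centred on group means -0.88, 0.88 and -0.82. This relation was looked at after the values were seen. Whether the number stands for an order of handling is not given in the sources used here, and its part in the variation was not tested.

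The numbers in the titles were matched by their order within each group. This gave 5 sets, called neighbouring here: 1 and 3, 4 and 6, 7 and 9, 10 and 12, 13 and 15. In each set the Visudyne number is the higher one. Visudyne 3, 6, 9 and 12 are closer in number to vehicle 4, 7, 10 and 13. In that closer pairing, which was not fitted, Flt1 was 34.0 CPM in Visudyne 3 and 34.7 CPM in vehicle 4. The labels do not pair any samples, and the comparison of the 5 sets was added after the values were seen. Cdh5, Flt1 and Abcb1a were higher in the Visudyne sample of all 5 neighbouring sets, and no member was lower in all 5. Over all genes 3.11% were higher in 5 of 5 sets and 3.82% lower. These 3 members vary together, so that their counts are not separate observations. With the sets as a block the log2 fold change was 0.22 for Cdh5 (interval 0.06 to 0.39), 0.06 for Abcb1a (-0.03 to 0.14) and 0.03 for Flt1 (-0.05 to 0.10). No member passed in that fit, where 0.0524% of all genes did. By edgeR's quasi-likelihood test Cdh5 had an unadjusted p of 0.0138, with an adjusted p of 0.9108, and no other member had an unadjusted p under 0.05.

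Markers of pericytes and smooth muscle had r = 0.65 with Cldn5 and 0.73 with Flt1 (permutation p = 0.049 and 0.022, adjusted 0.12 and 0.080; rho 0.52 and 0.70), and fibroblast markers had 0.50 and 0.44 (permutation p = 0.14 and 0.21, adjusted 0.25 and 0.34; rho 0.44 and 0.49). Centred on group means their r was 0.70 with Cldn5, 0.61 with Flt1 and -0.76 with Mfsd2a. Platelet and leukocyte markers had r = 0.66 with Cldn5, 0.59 with Flt1 and -0.69 with Mfsd2a (permutation p = 0.041, 0.076 and 0.027, adjusted 0.12, 0.15 and 0.090; rho 0.64, 0.70 and -0.71). Of the 10 genes listed for them only 4, all of low level, were tested and entered this mean. Taken singly, Pf4 had r = 0.64 and Itga2b 0.61 with Cldn5, while Gp1ba had -0.16 and Ptprc -0.15. With Cldn5 and Flt1, neuron markers had 0.05 and -0.14, astrocyte markers 0.34 and 0.06, and lymphatic endothelial markers 0.01 and 0.13. Microglia markers had 0.36 and 0.15, and oligodendrocyte markers 0.39 and 0.33. Without the 2 samples farthest from the median of each measure, astrocyte markers had 0.62 and 0.50 and microglia markers 0.62 and 0.46. In the same way oligodendrocyte markers had 0.55 and 0.24, neuron markers 0.08 and -0.17, and lymphatic endothelial markers 0.19 and 0.20. For Cldn5, r was 0.64 with the total count (permutation p = 0.049, adjusted 0.12; rho 0.71), and 0.15 without vehicle 1 and Visudyne 6. It was 0.57 with the difference between GC-rich and GC-poor genes (permutation p = 0.084, adjusted 0.16; rho 0.65) and 0.27 with the share of mitochondrial rRNA. The part of these measures in the variation of the members was not tested.

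With the mean of the 30 endothelial genes as a covariate, the intervals of the members that followed it became narrower. The SE of the log2 fold change went from 0.22 to 0.10 for Cldn5, from 0.13 to 0.05 for Flt1, from 0.10 to 0.06 for Abcb1a and from 0.17 to 0.09 for Cdh5. It was 0.04 for Tjp1 and 0.07 for Ocln with and without the covariate. The interval of Cldn5 was then -0.20 to 0.22, that of Abcb1a -0.09 to 0.16 and that of Flt1 -0.11 to 0.11. Cdh5 had 0.19 with an interval of -0.01 to 0.39, and no member passed (edgeR adjusted p = 0.9998 for each).

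Differences between members of the same sample do not change with a shared factor that scales both alike. Between the groups 6 differences were compared, and not all of these pairs varied alike. Over the 10 samples r was 0.80 for Cldn5 and Cdh5, 0.65 for Cdh5 and Pecam1 and 0.61 for Flt1 and Kdr. It was -0.91 for Abcb1a and Mfsd2a, -0.31 for Cdh5 and Slc2a1 and -0.23 for Ocln and Tjp1. For these negatively correlated pairs a difference does not remove the variation between samples. On the log2 CPM scale Flt1 exceeded Kdr by 1.88 ± 0.231 in vehicle and 1.82 ± 0.229 in Visudyne samples (SD, n = 5 each; exact two-sided permutation p = 0.714, adjusted 0.722 over 6). Cldn5 exceeded Cdh5 by 0.78 ± 0.148 and 0.61 ± 0.298 (SD, n = 5 each; exact permutation p = 0.294, adjusted 0.440), and Slc2a1 exceeded Cdh5 by 2.93 ± 0.370 and 2.64 ± 0.326 (exact permutation p = 0.222, adjusted 0.440). Pecam1 exceeded Cdh5 by 1.53 ± 0.281 and 1.31 ± 0.190 (exact permutation p = 0.198, adjusted 0.440). Ocln minus Tjp1 was -2.82 ± 0.100 and -2.91 ± 0.130 (exact permutation p = 0.294, adjusted 0.440), and Mfsd2a minus Abcb1a was -0.51 ± 0.343 and -0.59 ± 0.397 (exact permutation p = 0.722, adjusted 0.722). None of the 6 passed, where the smallest p the design allows is 0.0079. Mfsd2a minus Abcb1a ran from -0.98 in Visudyne 3 to -0.05 in vehicle 13, the widest range beside that of Slc2a1 minus Cdh5 (2.33 in Visudyne 6 to 3.33 in vehicle 13).

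Other genes of the barrier were examined in 8 lists of barrier and endothelial genes, and edgeR called 0 in each. Over all genes tested 0.0210% were called, so that 0 calls in lists of this size say little about barrier genes. A positive log2 fold change was found for 51.1% of all genes tested, and no list was tested as a set. Of 21 other junction genes tested, 12 were positive and 9 negative, and the median difference was 0.01 on the log2 scale; Tjp3 and Marveld3 were too low to be tested. The lipolysis-stimulated receptor gene Lsr, which acts where 3 cells meet, measured 1.51 ± 0.501 and 2.09 ± 0.657 CPM (0.47, SE 0.26), Jam2 32.6 ± 1.92 and 34.2 ± 1.46 CPM (0.07, SE 0.05) and the scaffold gene Magi1 32.8 ± 2.22 and 30.5 ± 3.70 CPM (-0.11, SE 0.08; SD, n = 5 each, here and below in the order vehicle and Visudyne). Of 31 other transporters and transport receptors, 15 were positive and 16 negative, with a median of -0.01. The cationic amino acid carrier gene Slc7a1 measured 28.2 ± 1.52 and 30.4 ± 1.48 CPM (0.11, SE 0.05), the metal ion carrier gene Slc39a8 2.74 ± 0.158 and 3.17 ± 0.560 CPM (0.21, SE 0.13) and the lactate carrier gene Slc16a1 38.6 ± 3.91 and 41.9 ± 3.67 CPM (0.12, SE 0.08). These 6 genes had the smallest p of their lists, and none passed.

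Among 24 VEGF ligands and angiogenic ligands and receptors, 16 were positive and 8 negative, with a median of 0.03. The ligand genes of smallest p were Pgf (2.29 ± 0.320 and 2.65 ± 0.327 CPM, 0.21, SE 0.13), Vegfc, which drives lymphatic growth (2.53 ± 0.467 and 2.25 ± 0.117 CPM, -0.17, SE 0.14), and Angpt2 (2.05 ± 0.546 and 2.53 ± 1.11 CPM, 0.30, SE 0.28). Of 22 genes of Wnt signalling to brain endothelium, 16 were positive and 6 negative, with a median of 0.03. Tcf7l2, a transcription factor that binds beta-catenin, measured 2.10 ± 0.208 and 2.57 ± 0.250 CPM (0.29, SE 0.11). No other gene of that list had an unadjusted p under 0.05. By edgeR's quasi-likelihood test the p of Tcf7l2 was 0.0265, with an adjusted p of 0.9999. Over the 10 samples Tcf7l2 had r = -0.31 with Cldn5, where the median of the list was 0.48. The Wnt co-receptor gene Lrp5 measured 8.49 ± 0.895 and 9.28 ± 0.624 CPM (0.13, SE 0.08), and Sox17, an endothelial transcription factor also counted among the identity genes, 1.66 ± 0.161 and 1.38 ± 0.348 CPM (-0.26, SE 0.18).

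The 30 endothelial identity genes had a median of -0.02, with 13 positive and 17 negative. Ly6a (0.861 ± 0.829 and 1.52 ± 0.345 CPM, 0.83, SE 0.63; listed at 0 in 1 vehicle sample) and Ly6c1 (9.71 ± 1.12 and 8.92 ± 1.18 CPM, -0.12, SE 0.10), surface proteins of the Ly6 family, followed Sox17 by p. Of 15 genes of caveolae, fenestration and leukocyte adhesion 12 were tested, and 8 were positive and 4 negative (median 0.03). Cavin1, a coat protein of caveolae, measured 8.10 ± 1.91 and 9.51 ± 1.40 CPM (0.23, SE 0.15), the TNF receptor gene Tnfrsf1a 3.70 ± 0.564 and 4.12 ± 0.229 CPM (0.15, SE 0.11), and Plvap, a protein of fenestrae that mature barrier vessels largely lack, 3.43 ± 0.203 and 3.69 ± 0.360 CPM (0.11, SE 0.09). The adhesion genes Sele and Selp and the acute-phase gene Lcn2 were too low to be tested.

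Along the vessel tree, 4 of 9 arterial genes were positive (median -0.03) and 4 of 7 venous genes (median 0.05). The arterial genes Efnb2, an ephrin (19.8 ± 1.65 and 22.4 ± 1.66 CPM, 0.17, SE 0.07), and Gja5, a connexin (0.301 ± 0.0779 and 0.438 ± 0.0605 CPM, 0.54, SE 0.24), had an unadjusted p under 0.05. By edgeR's quasi-likelihood test p was 0.0262 for Efnb2 and 0.0430 for Gja5, with an adjusted p of 0.9999 for both. Sema3g, a semaphorin of arterial endothelium, measured 4.64 ± 0.630 and 4.11 ± 0.544 CPM (-0.17, SE 0.12). Over the 10 samples r with Cldn5 was -0.19 for Efnb2, 0.43 for Gja5 and 0.83 for Sema3g. Which cells gave the Efnb2 level was not tested. Among the venous genes, the amino acid carrier gene Slc38a5 (-0.19, SE 0.17) and the adhesion genes Icam1 (0.20, SE 0.20) and Vcam1 (-0.09, SE 0.10) had the smallest p. Some genes stand in more than 1 of these lists.

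**Figure D5:**
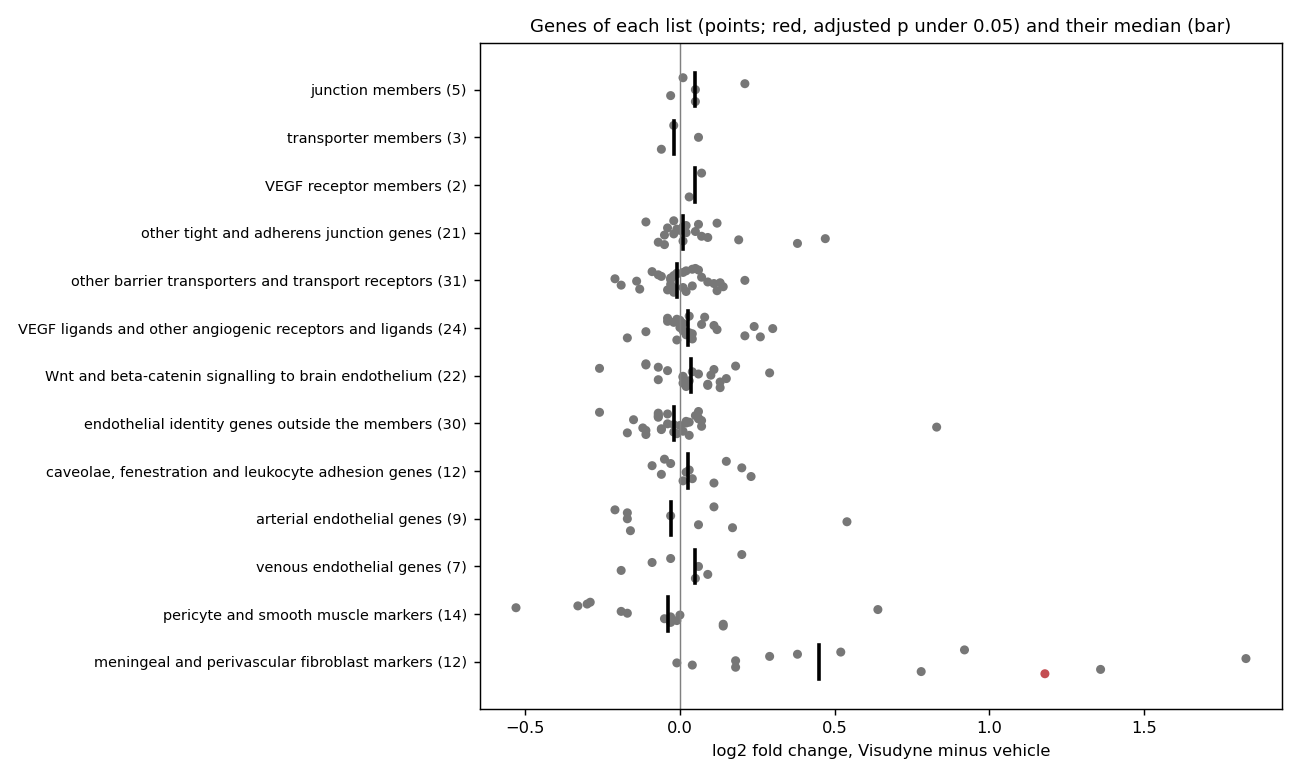
Log2 fold change (x axis, Visudyne minus vehicle) of each tested gene in lists of barrier, endothelial and neighbouring cell types (y axis, number tested in parentheses); black bars are list medians and red marks an adjusted p under 0.05. The barrier and endothelial lists have medians from -0.03 to 0.05, and the fibroblast list has one of 0.45 with Col1a1 as the only red point.

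Markers of other cell types were measured in the same samples. Of 12 fibroblast markers 11 were positive (median 0.45), and their summed level was 113 to 184 CPM in vehicle and 206 to 246 CPM in Visudyne samples. The collagen gene Col1a1 was the one fibroblast marker that passed, at 8.42 ± 2.30 CPM with vehicle and 19.0 ± 2.47 CPM with Visudyne (difference 1.18 on the log2 scale; edgeR adjusted p = 0.0485). Of 7 lymphatic endothelial markers 6 were positive (median 0.22) and none passed. Their mean log2 CPM was 1.90 to 2.16 in vehicle and 2.24 to 2.48 in Visudyne samples, ranges that did not overlap. The mean of the fibroblast markers did not overlap either, at 2.33 to 3.4 in vehicle and 3.45 to 3.8 in Visudyne samples. Of all genes taken singly, 0.435% had groups that did not overlap. In the lymphatic list the largest log2 fold changes were in genes of low level, 1.43 for Foxc2 and 0.65 for Ccl21a (0.332 ± 0.188 and 0.522 ± 0.253 CPM). Lyve1 had 0.23, Pdpn 0.22, Reln 0.04, Flt4 0.03 and Prox1 -0.09. With a filter of at least 1 CPM in 5 samples the list median was 0.05. The summed level of the 7 markers (223 to 241 and 234 to 245 CPM) came mostly from Prox1 and Reln, which neurons also express. Prox1 measured 108 ± 7.84 and 101 ± 10.7 CPM and Reln 118 ± 12.9 and 122 ± 12.4 CPM. The transcription factor gene Foxc2 had the smallest p of the list, at 0.469 ± 0.257 and 1.26 ± 0.339 CPM (1.43, SE 0.34), and was named after its values were seen. By edgeR's quasi-likelihood test its p was 0.00132, with an adjusted p of 0.9999. Pericyte and smooth muscle markers summed to 161 to 199 CPM in vehicle and 156 to 205 CPM in Visudyne samples, with 4 of 14 positive. Red blood cell transcripts summed to 5.46 to 17.9 and 4.05 to 31.2 CPM, and the 9 platelet and leukocyte genes in the table to 5.44 to 5.87 and 5.81 to 8.15 CPM. Choroid plexus markers summed to 156 to 449 CPM in vehicle and 156 to 213 CPM in Visudyne samples. Vehicle 7 stood apart in them, with a mean log2 CPM of 2.66 against 0.722 to 1.22 in the other vehicle samples. The median log2 fold change of that list was -0.23, and 0.22 without vehicle 7. No marker of these lists that is in the table was at 0 in every sample, and their part in the values of the members was not tested.

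The genes whose levels followed the members most closely were taken from 12305 protein-coding genes with a mean log2 CPM of at least 1, by Pearson's r over the 10 samples and with no test. For Cldn5 they were Sel1l3 (0.956), the endothelial receptor gene Acvrl1 (0.944), Podxl (0.931), Lgi4 (0.927), Ankrd34a (0.926), Aatk (0.923), Tmem86a (0.921) and Esam, an endothelial adhesion molecule (0.921). For the mean z-score of all 10 members they included Necap2 (0.954), Mob3a (0.951), Olfml3 (0.946), Aif1 (0.944), Msrb3 (0.936), Vwa1 (0.927) and Unc93b1 (0.924). That mean combines members that varied in opposite directions, such as Abcb1a and Mfsd2a (r = -0.91). It is therefore not a pattern that all 10 members share. The points share libraries and depth. An r above 0.8 with Cldn5 was found for 0.660% of all genes tested.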

How the data were processed

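Per the labels' protocols, strand-specific libraries were made from total hippocampal RNA. The deposited table holds estimated counts by Ensembl gene identifier. The submitters' processing notes name Salmon, FastQC and mm10, without versions or annotation release. The deposited values are whole numbers, so that rounding changed nothing. Salmon divides reads between similar transcripts by estimation, which makes Abcb1a and Abcb1b less certain. All 10 sample columns were used. Symbols came from GENCODE M21 for 28564 identifiers; 307 had none and held 0.134% of counts.

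Groups came from the titles. In each of the 45 pairs of libraries the counts differed beyond sampling error (chi-square over its degrees of freedom was 8.87 to 61.8). No library was thus a mere repeat of the reads of another, and each was treated as 1 sample. This comparison cannot tell separate animals from separate preparations of the same tissue. The groups share no sample numbers, and no batch is labelled. edgeR 4.0.16 (R 4.3.3) was run with its default filter, TMM and the quasi-likelihood test, with Benjamini-Hochberg adjustment over 19093 genes and a threshold of 0.05; the procedure was tested on simulated counts. log2 CPM used a prior count of 2. Correlations used 100000 permutations, and comparisons of 5 with 5 samples all 252 assignments. Alternatives used DESeq2 1.42.0 and limma 3.58.1, run on the genes that passed the filter.

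The members, and 18 further lists with 227 genes, were chosen with earlier results of these data known. Named genes are the members, listed genes past the threshold, the 3 of smallest p in each of 8 barrier and endothelial lists, and the 8 most alike in pattern to Cldn5 and to the member mean, of which 1 is not reported here. Other genes named as examples were chosen after their values were seen.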

Additional observations from a re-analysis of the deposited data

Results flagged for a closer look

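Pecam1 in Visudyne 12 measured 15.9 CPM and stood apart below the other Visudyne samples, the nearest of which measured 20.1 CPM. It was the only such sample among 20 groups examined, the 10 members in each of 2 groups, and chance marks about 1 group in 20. Cdh5, Cldn5, Abcb1a and Flt1 were also low in that sample, at 6.47, 8.78, 17.0 and 23.6 CPM.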

How the results depend on the processing

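No member was called under any of the 21 alternatives of the fit. The median log2 fold change of the members stayed between -0.0021 and 0.10. Over all genes, 4 were called higher; 2 with upper-quartile factors, 2 without mitochondrial genes, 7 with the endothelial score and 19 with the sample number as covariate, 18 with DESeq2 and 13 with voom and quality weights. With neighbouring sample numbers as a block, added after the data were seen, 9 were called higher and 1 lower. Leaving out a sample gave 0 to 4 higher and 0 to 1 lower genes. Signs of members near 0 changed when a sample was left out, with the cause not tested: Cldn5 ranged from -0.09 (without Visudyne 6) to 0.23, with -0.05 and -0.02 without vehicle 10 and 13. Pecam1 ranged from -0.01 to 0.08, with -0.0012, -0.0029, -0.0015 and -0.0022 without vehicle 10, vehicle 13, Visudyne 9 and Visudyne 15. Flt1 ranged from -0.04 to 0.12, with -0.0012 without vehicle 13 and -0.01 without Visudyne 3. Mfsd2a ranged from -0.10 to 0.06, with 0.02 and 0.03 without Visudyne 3 and 6. Kdr ranged from -0.02 (without vehicle 13) to 0.16, and Ocln from -0.07 to 0.01 (without vehicle 1 or Visudyne 6). Over all alternatives Cdh5 ranged from 0.11 to 0.35, with an edgeR adjusted p of 0.4675 with the sample number as covariate, the lowest of any member. Within samples, Flt1 minus Kdr ranged from -0.15 to 0.03 (without vehicle 13), with 0.0016 without Visudyne 12, and Mfsd2a minus Abcb1a from -0.20 to 0.04, with 0.04, 0.02 and 0.01 without vehicle 13, Visudyne 3 and Visudyne 6. Of the 12 correlated pairs of members, 4 passed without the 2 farthest samples, where fewer samples enter; centring on group means was added after the data were seen. No paired analysis was possible from the labels, because the groups share no sample numbers and the labels tie no sample to another. The block of neighbouring numbers rests on the order of the title numbers within each group alone, with the Visudyne number always the higher. Depth limits Cdh5 most, with 273 counts in its lowest sample.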
